A study of Mus musculus with 10 samples.

Results

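The 10 genes described here belong to the amylase family and to the lipases, with their cofactor, that the mouse pancreas secretes. Amy2b is counted among them, although the GENCODE M21 annotation lists it as an unprocessed pseudogene. They were matched by symbol: the amylase genes Amy2a5, Amy2a2, Amy2b and Amy1, the lipase genes Pnlip, Pnliprp1, Pnliprp2 and Cel, the colipase gene Clps and the phospholipase gene Pla2g1b. They were 10 of the 52178 genes in the count table, and all 10 passed the filter on low counts. RNA-seq was done on pancreatic islets, the hormone-secreting cell clusters of the pancreas, from C57Bl/6 male mice that were retired breeders. The exercise group (exercise 6 to 10, n = 5 libraries) ran on a treadmill at 17 cm/s and an incline of 5 degrees for 2 weeks, with 1 hour on each of 5 days per week, after acclimatization for 3 days. The sedentary group (sedentary 1 to 5, n = 5 libraries) had no training in the labels. In both groups the pancreas was digested with collagenase given through its duct, and islets were hand-picked into RPMI medium with glucose at 11 mM and serum. No label says that each library is a separate animal, and a p-value here reflects variation among libraries, part of which may be technical.

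Amylases cut starch, and the pancreatic lipases cut dietary fat, in the lumen of the gut. The pancreatic amylases and lipases are made in the acinar cells of the exocrine pancreas. These cells surround the islets and store the enzymes in zymogen granules until a meal. Islet endocrine cells are not known as a source of these enzymes, and transcripts of acinar cells are commonly found in islet preparations. In the mouse, Amy1 is the amylase gene used in the salivary gland and the liver, and the Amy2 genes are those of the pancreas.

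Library totals lay between 15081922 and 23222704 estimated counts. The labelled tissue was checked against beta cell markers, whose 10 listed genes summed to 134759 to 190979 CPM (counts scaled to library size with TMM factors) in exercise and 8151 to 194263 CPM in sedentary libraries. Sedentary 1 and 2 stood apart, with 5057 and 23744 CPM of the insulin gene Ins2, against 85181 to 124506 CPM in the other 8 libraries. Intestinal epithelium markers, 10 genes of which 10 fell in exercise (edgeR), also without sedentary 1 and 2, summed to 144 to 572 CPM in exercise and 2345 to 13542 CPM in sedentary libraries. Of 8 stomach markers found, Lipf was at 0 in all libraries. The 8 summed to 4.19 to 12.6 CPM in exercise libraries, 16.7 to 55.9 CPM in sedentary 2 to 5, and 5258 CPM in sedentary 1. Gene list counts, and the fold changes that moved most without sedentary 1 and 2, are therefore also given without them.

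The enzymes of starch and fat digestion made up a large part of the RNA of these islet preparations, and a larger part in exercise than in sedentary libraries. The 10 genes took 13.3, 11.3, 11.8, 19.8 and 10.9% of the counts in exercise 6 to 10, and 10.2, 4.70, 7.90, 7.43 and 5.24% in sedentary 1 to 5. The groups did not overlap, but exercise 10 lay within 1 percentage point of sedentary 1. The means were 13.4 ± 3.66% in exercise and 7.09 ± 2.20% in sedentary libraries (SD, n = 5 each). These shares leave out the rows Amy2a1, Amy2a3 and Amy2a4, which share reads with the amylase genes counted here. All 7 amylase rows alone took 16.8 ± 4.92% in exercise and 9.05 ± 3.05% in sedentary libraries. The 6 genes of fat digestion alone took 4.77 ± 1.14% in exercise and 2.79 ± 0.865% in sedentary libraries. In bulk RNA, more acinar cells and more RNA of these enzymes per acinar cell cannot be told apart.

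The mean level was higher in exercise for 10 of 10 genes, and 3 of them passed the test across all genes: Amy2a5, Amy2b and Pnliprp2 (edgeR's quasi-likelihood test, adjusted p under 0.05 after Benjamini-Hochberg). For comparison, 2.44% of the 15298 genes tested rose by this rule and 11.4% fell. At an unadjusted p under 0.05, 9 of the 10 were higher in exercise, against 10.8% of all genes tested. The median log2 fold change of the 10 genes was 1.24, and that of all genes tested was -0.00072. Scaling to library totals moved these medians to 0.83 and -0.34. DESeq2 called 9 of the 10, with 7.17% of all genes called higher, and limma-voom called 1, with 1.16% of all genes called higher. Without sedentary 1 and 2, edgeR called 6 of the 10, with 4.1% of all genes called higher.

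**Figure D1:**
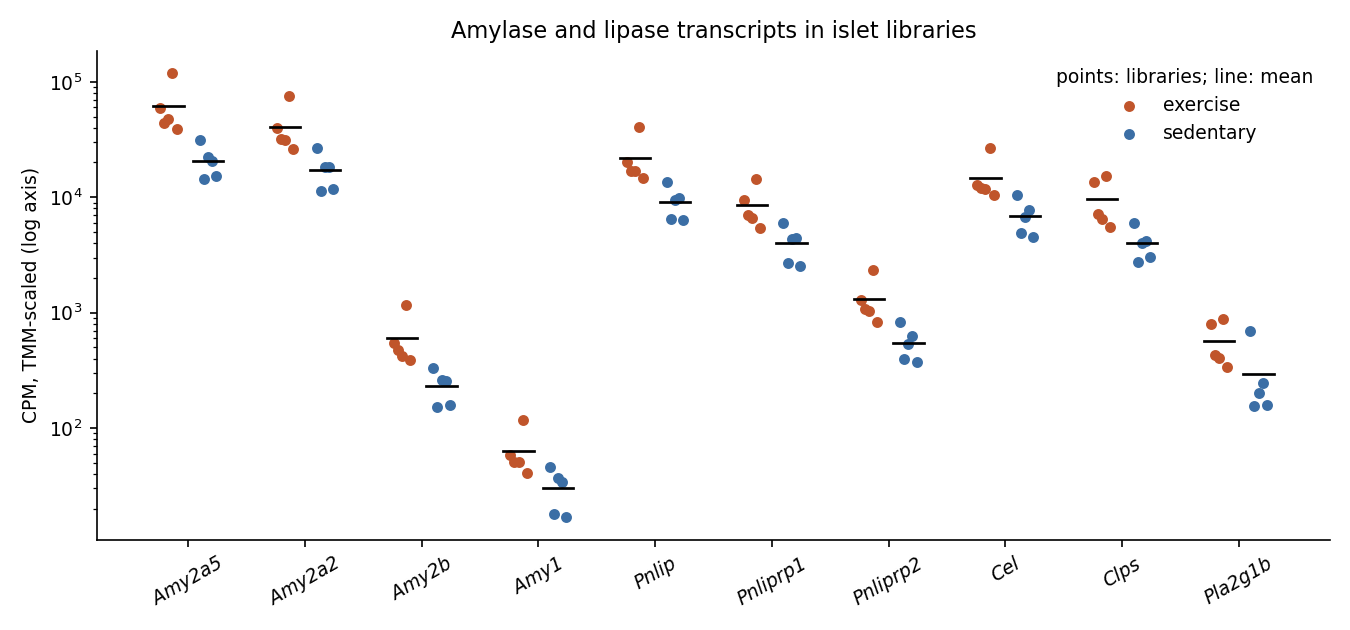
CPM with TMM scaling, on a log axis, of the 10 genes in each library, with exercise (left, red) and sedentary (right, blue) libraries as points and the group mean as a line (n = 5 each). Exercise means lie above sedentary means for all 10 genes, and the topmost exercise point of each gene is exercise 9.

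Amy2a5 had the highest counted level per kilobase of the 4 amylase genes, 16666 ± 8857 CPM in exercise and 5572 ± 1813 CPM in sedentary libraries (SD, n = 5 each). This ranks single rows, and the row of Amy2a2 holds only an equal part of reads shared with its identical copies Amy2a3 and Amy2a4. Together these copies took 61.4% of amylase counts in exercise and 64.4% in sedentary libraries. Amy2a5 took 30.7% in exercise and 26.0% in sedentary libraries. Before length scaling it had 59091, 44398, 47438, 119327 and 39323 CPM in exercise 6 to 10, and 31047, 14309, 22260, 20750 and 15128 CPM in sedentary 1 to 5. Every exercise library was above every sedentary one, and exercise 9 was far above the other exercise libraries. The log2 fold change was 1.58 ± 0.46 (SE, edgeR adjusted p = 0.0469), 2.99-fold. This call was lost when any 1 library other than sedentary 1 was left out, with edgeR adjusted p up to 0.105.

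Amy2b, another gene of the amylase cluster on chromosome 3, was far scarcer, at 379 ± 202 CPM per kilobase in exercise and 147 ± 48.5 CPM per kilobase in sedentary libraries. It had 541, 477, 423, 1157 and 389 CPM in exercise 6 to 10, and 333, 151, 262, 254 and 159 CPM in sedentary 1 to 5. The groups did not overlap, with exercise 10 the lowest of its group and sedentary 1 the highest of its own. Its log2 fold change was 1.37 ± 0.35 (SE, edgeR adjusted p = 0.0299), and the call was lost without exercise 6 or 7 or sedentary 2 or 5 (edgeR adjusted p up to 0.0623). Amy2b can share reads with the other copies. Amylase summed over its rows had a larger SE, 0.57, and did not pass (edgeR adjusted p = 0.138), though its groups did not overlap either.

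Amy2a2 had 26155 to 74980 CPM in exercise and 11378 to 26818 CPM in sedentary libraries, a log2 fold change of 1.24 ± 0.44 (SE; adjusted p = 0.0822, edgeR). Exercise 10 lay just under sedentary 1, so these groups overlapped. Amy1 was at 40.6 to 118 CPM in exercise and 16.8 to 46.1 CPM in sedentary libraries, with a log2 fold change of 1.07 ± 0.36 (SE; adjusted p = 0.0735, edgeR). Per kilobase of transcript Amy1 had 32.1 ± 15.6 CPM in exercise and 15.3 ± 6.37 CPM in sedentary libraries (SD, n = 5 each), the lowest level of the 10 genes. Of 7 salivary gland markers found, Bpifa2, Prol1, Smr3a, Smgc and Dcpp1 were at 0 in every library and Lpo did not exceed 0.71 CPM. The last, Bhlha15, is also an acinar gene and made up nearly all of the list's sum of 71.6 to 97.4 CPM in exercise and 37.5 to 110 CPM in sedentary libraries. Of the 7 liver markers, Ttr is also an islet gene. Cps1 reached 20.3 CPM in exercise libraries and had 404, 1136, 148, 52.7 and 130 CPM in sedentary 1 to 5. The intestinal marker Fabp2 had 1426, 1915, 375, 191 and 368 CPM there. The part of intestinal RNA in the Cps1 level was not tested. The other 5 liver markers stayed at or below 5.35 CPM in exercise and 14.04 CPM in sedentary libraries. The liver list summed to 656 to 907 CPM in exercise and 443 to 1352 CPM in sedentary libraries.

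The division of reads among the amylase rows is uncertain, because the copies are nearly the same sequence. In the GENCODE M21 transcripts, those of Amy2a2, Amy2a3 and Amy2a4 were identical over 3717 bases, and the deposited counts of the 3 rows were equal in every library (tolerance 0.001). Against Amy2a2, the Amy2a5 transcript of 3715 bases had 55 mismatches and 6 gap columns. The first difference stood at base 1746, after the stop codon, which ends at base 1682, so that Amy2a5 and Amy2a2 are told apart only by their 3′ untranslated parts. The aligned part of Amy2b was 97.9% identical to Amy2a2 and that of Amy1 89.4%. GENCODE M21 lists Amy2b as an unprocessed pseudogene. To show how far the copies share sequence, the first 90 bases of the coding sequence of Amy2a5 and of Amy1 are printed, with capitals where Amy1 differs from Amy2a5. Amy2a2, Amy2a1 and Amy2b have the letters of Amy2a5 there.
Amy2a5: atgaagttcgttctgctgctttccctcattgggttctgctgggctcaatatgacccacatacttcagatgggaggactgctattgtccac
Amy1: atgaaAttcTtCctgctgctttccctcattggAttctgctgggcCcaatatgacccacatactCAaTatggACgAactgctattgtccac
Amy1 carried 11 differences in this stretch. Of its 31-base words, 91.0% occurred in no differing amylase transcript, against 33.7% for Amy2a5 and for Amy2a2, 40.6% for Amy2b and 3.60% for the short Amy2a1 transcript of 890 bases. Amy1 counts are thus the best resolved of the amylase rows.

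Summed over the 7 amylase rows (Amy1, Amy2a1 to Amy2a5 and Amy2b), which removes the question of division, amylase was at 178332, 155997, 154437, 382674 and 131727 CPM in exercise 6 to 10. Sedentary 1 to 5 had 126036, 54244, 84647, 85289 and 53574 CPM. The groups did not overlap, though exercise 10 and sedentary 1 lay close together. The log2 fold change was 1.31 ± 0.57 (SE) and did not pass (edgeR adjusted p = 0.138). The summed level passed with DESeq2 (adjusted p = 0.00269) and not with limma-voom (adjusted p = 0.0684). Its SE was 0.36 with DESeq2 and 0.37 with limma-voom, smaller than with edgeR. As a share of all counts, amylase took 16.8 ± 4.92% in exercise and 9.05 ± 3.05% in sedentary libraries (SD, n = 5 each).

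The share of the amylase counts given to Amy2a5 was 33.1, 28.5, 30.7, 31.2 and 29.9% in exercise 6 to 10, and 24.6, 26.4, 26.3, 24.3 and 28.2% in sedentary 1 to 5. The groups did not overlap, but exercise 7 and sedentary 5 were within 1 percentage point. The 3 identical copies together took 61.4 ± 3.05% in exercise and 64.4 ± 1.41% in sedentary libraries. Amy2a1 took 0 in exercise 6, where it is listed at 0, 8.38 to 10.3% in the other exercise libraries and 4.80 to 11.6% in sedentary libraries. How far reads moved between near-identical rows in the authors' estimate was not tested.

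**Figure D2:**
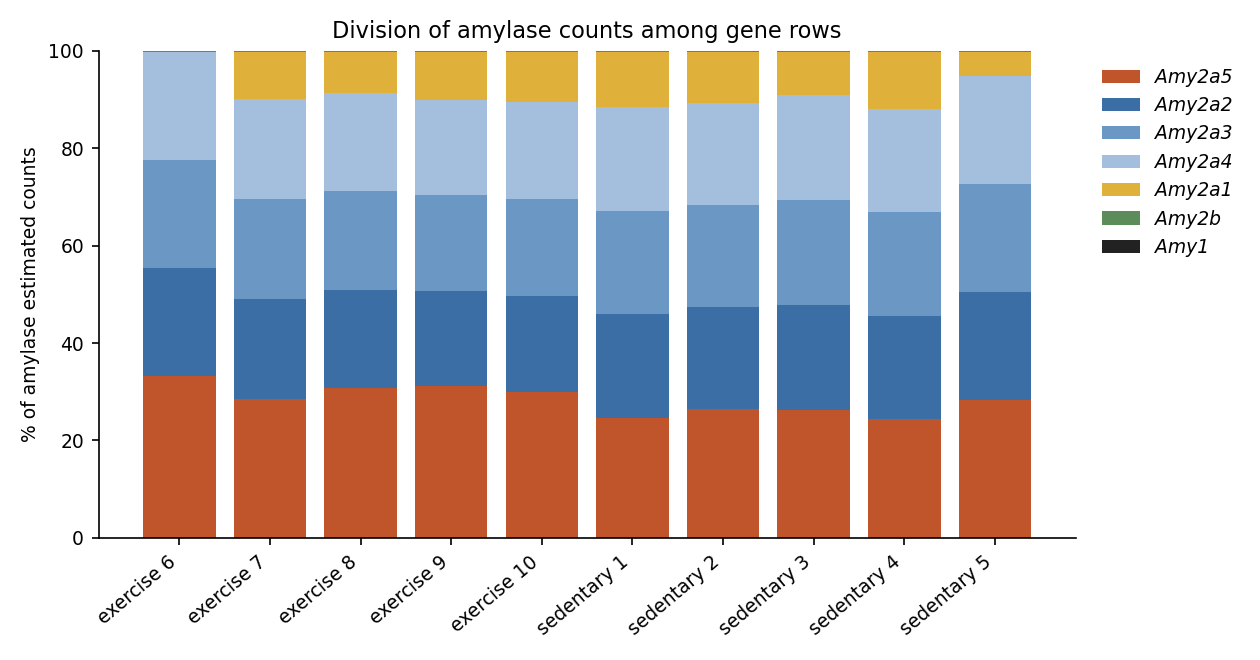
Percent of all amylase estimated counts given to each of 7 gene rows, as stacked bars for each library, exercise on the left and sedentary on the right. The Amy2a5 segment is 28.5 to 33.1% in exercise and 24.3 to 28.2% in sedentary libraries, and Amy2a1 is missing in exercise 6.

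Pnlip encodes pancreatic triglyceride lipase, the main enzyme of dietary fat digestion. It had 20075, 16874, 17019, 40587 and 14704 CPM in exercise 6 to 10, and 13682, 6473, 9453, 9859 and 6338 CPM in sedentary 1 to 5. The groups did not overlap, but the log2 fold change of 1.25 ± 0.40 (SE) did not pass the threshold (edgeR adjusted p = 0.0606). In all, 3 of the 10 genes had every exercise library above every sedentary one (Amy2a5, Amy2b and Pnlip), against 6.24% of the genes tested. Pnlip passed without sedentary 1 (edgeR adjusted p = 0.0495).

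Clps encodes colipase, the small cofactor that anchors pancreatic lipase to fat droplets coated with bile salts. It had 13497, 7101, 6499, 15282 and 5573 CPM in exercise 6 to 10, and 6037, 2745, 4019, 4199 and 3016 CPM in sedentary 1 to 5. Exercise 6 and 9 were high, and exercise 10 lay under sedentary 1. The log2 fold change was 1.26 ± 0.38 (SE, edgeR adjusted p = 0.0515), and Clps passed without sedentary 1 or without exercise 10. Per kilobase of transcript, colipase was at 15696 ± 7299 CPM in exercise and 6552 ± 2123 CPM in sedentary libraries. Its partner Pnlip was at 14695 ± 7160 CPM in exercise and 6161 ± 2023 CPM in sedentary libraries on the same scale (SD, n = 5 each). Within a library, the level of Clps per kilobase was 0.916 to 1.64 times that of Pnlip in exercise and 1.03 to 1.16 times in sedentary libraries. Clps was the higher of the pair in 2 of 5 exercise and 5 of 5 sedentary libraries. The median ratios, 0.929 and 1.04, were near 1, so which gene is higher depends on the transcript length used, here the full annotated one.

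The Pnlip-related genes Pnliprp1 and Pnliprp2 lie beside Pnlip on chromosome 19. Pnliprp2 encodes a lipase that also cuts galactolipids and phospholipids. It had 1282, 1068, 1027, 2356 and 827 CPM in exercise 6 to 10, and 830, 393, 537, 623 and 372 CPM in sedentary 1 to 5. Exercise 10, at 827 CPM, was the 1 exercise library under the highest sedentary value. Pnliprp2 passed with a log2 fold change of 1.25 ± 0.33 (SE; adjusted p = 0.0342, edgeR), and kept its call when exercise 10, sedentary 1 or sedentary 4 was left out, but not when any other 1 library was (edgeR adjusted p up to 0.0708). Pnliprp1 encodes a related protein with little activity on triglycerides. It was at 5416 to 14258 CPM in exercise and 2542 to 6015 CPM in sedentary libraries, a log2 fold change of 1.10 ± 0.36 (SE; adjusted p = 0.0679, edgeR). Per kilobase, Pnliprp1 had 5285 ± 2165 CPM in exercise and 2471 ± 880 CPM in sedentary libraries, above Pnliprp2 with 835 ± 385 CPM in exercise and 351 ± 119 CPM in sedentary libraries.

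Cel encodes the carboxyl ester lipase, which bile salts activate and which cuts cholesterol esters, vitamin esters and glycerides. It had 12698, 11926, 11701, 26903 and 10413 CPM in exercise 6 to 10, and 10465, 4914, 6723, 7802 and 4524 CPM in sedentary 1 to 5. Exercise 10 and sedentary 1 were nearly equal, and exercise 9 was far above the rest of its group. The log2 fold change was 1.10 ± 0.38 (SE, edgeR adjusted p = 0.0790). Per 100 Pnlip counts there were 68.0 ± 3.21 Cel counts in exercise and 74.8 ± 3.47 in sedentary libraries (SD, n = 5 each), a difference that was not tested.

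Pla2g1b encodes the secreted pancreatic phospholipase, made as a proenzyme that trypsin activates. It had 790, 430, 406, 882 and 340 CPM in exercise 6 to 10, and 700, 154, 201, 246 and 160 CPM in sedentary 1 to 5. Sedentary 1 was higher than 3 of the 5 exercise libraries, and the other 4 sedentary libraries were below all exercise libraries. The log2 fold change was 0.96 ± 0.47 (SE, edgeR adjusted p = 0.174). Without sedentary 1 it was 1.58 and passed (edgeR adjusted p = 0.0210), and without sedentary 1 and 2 it was 1.52 (edgeR adjusted p = 0.0167).

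Set against Pnlip in the same library, Pla2g1b stood at 3.93, 2.55, 2.38, 2.17 and 2.31 counts per 100 Pnlip counts in exercise 6 to 10. In sedentary 1 to 5 it stood at 5.11, 2.38, 2.13, 2.49 and 2.52. Sedentary 1 and, less so, exercise 6 were above the other 8 libraries, which lay between 2.13 and 2.55. The stomach markers moved with the value of sedentary 1: Pgc, the stomach proenzyme progastricsin, had 2842 CPM there, and 0 to 1.84 CPM in exercise and 6.46 to 43.4 CPM in the other sedentary libraries. In exercise 6 the stomach list summed to 12.6 CPM. The part of stomach RNA in the Pla2g1b level was not tested.

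**Figure D3:**
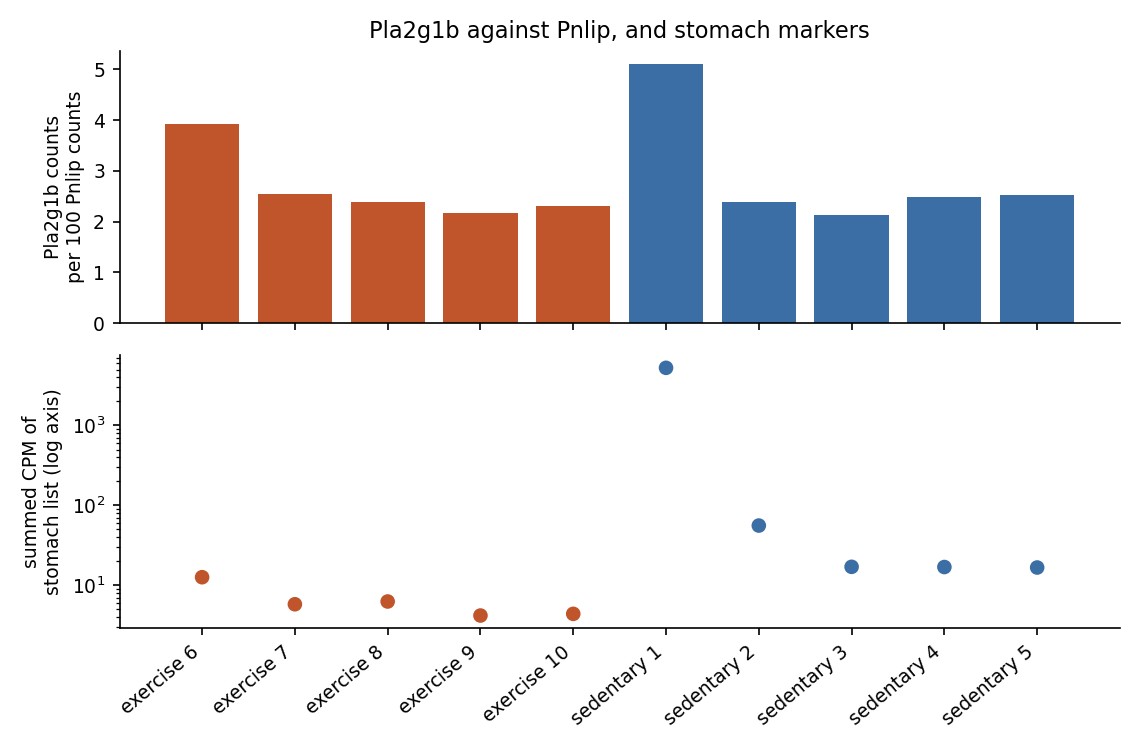
Pla2g1b counts per 100 Pnlip counts (top, bars) and the summed CPM of the stomach marker list (bottom, log axis) in each library, with exercise on the left in red and sedentary on the right in blue. Sedentary 1 has the highest value in both panels, 5.11 counts and 5258 CPM, and exercise 6 has the second highest ratio, 3.93.

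The 10 genes varied together across libraries. Over the 10 libraries, the Pearson correlation of log2 CPM between 2 of the genes lay between 0.880 (Amy2b with Pla2g1b) and 0.998 (Amy2a2 with Pnlip), with a median of 0.979 over 45 pairs. These are descriptions, since the genes share libraries and the amylase rows share reads. The genes outside the 10 that followed their mean profile most closely, of 8677 ranked, included the identical copies Amy2a4 and Amy2a3 (r = 0.999 each). Also among the nearest were Gp2 (r = 0.996), which encodes the main membrane glycoprotein of zymogen granules, and Cpa1 (r = 0.996), which encodes a digestive carboxypeptidase.

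Most other acinar enzyme genes had higher means in exercise too. Of a list of 29 acinar enzymes and granule proteins outside the 10, 16 rose, 1 fell and 12 did not pass, with a median log2 fold change of 1.24 (edgeR; 2.44% of all genes tested rose and 11.4% fell). Their summed level was 125971 to 332636 CPM in exercise and 58503 to 116988 CPM in sedentary libraries. The 4 of smallest p were Klk1, a kallikrein protease, Aqp8, a water channel, Ctrl, a chymotrypsin-like protease, and Sycn, syncollin of the zymogen granule. Klk1 averaged 2680 ± 1143 CPM in exercise and 831 ± 213 CPM in sedentary libraries, with a log2 fold change of 1.69. Ctrl and Sycn had log2 fold changes of 1.41 and 1.47. Aqp8 was the 1 that fell, with 2.12 ± 0.409 CPM in exercise and 14.6 ± 12.2 CPM in sedentary libraries, and is also known from the intestinal epithelium. Its log2 fold change of -2.77 was -1.42 without sedentary 1 and 2. The count of 16 was between 1 and 18 when 1 library was left out, and was 1 without exercise 6, sedentary 2 or sedentary 5. It was 19 without sedentary 1 and 2, 23 with DESeq2 and 5 with limma-voom (4.1, 7.17 and 1.16% of all genes rose). It was 2 without exercise 9, 3 without exercise 7, 5 without exercise 8 and 7 without sedentary 3. With 1 library left out, all genes that rose ran from 132 of 15578 (without exercise 7) to 889 of 15405 (without sedentary 4).

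To ask whether an enzyme moved by more or less than the rest of the acinar transcripts, each library was scaled to the summed counts of the 29 other acinar genes. On this scale 0 of the 10 genes passed in edgeR, and 0 had an unadjusted p under 0.05. Here 0.131% of all genes tested were higher in exercise and 61.9% were lower. The median of the 10 was -0.02, while that of all genes tested was -1.20. The log2 fold changes ran from -0.19 ± 0.37 for Pla2g1b to 0.30 ± 0.20 for Amy2a5 (SE, edgeR adjusted p = 0.638 and 0.185). Pnlip had -0.01 ± 0.22, Pnliprp2 -0.00 ± 0.31 and Clps -0.02 ± 0.25 (SE). Cel and Pnliprp1 both had -0.14, with SE of 0.24 and 0.25. Amylase summed over its 7 rows had 0.06 ± 0.18 (SE, edgeR adjusted p = 0.775). The errors are wide enough that modest differences in either direction could have been missed. They rest partly on a variance estimate that edgeR shares across all genes, and do not measure a gene's own spread alone. For Pnliprp2, with an SE of 0.31, the SD of the log2 ratio was 0.14 in exercise and 0.10 in sedentary libraries. For Pla2g1b, with an SE of 0.37, these SDs were 0.16 and 0.55.

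**Figure D4:**
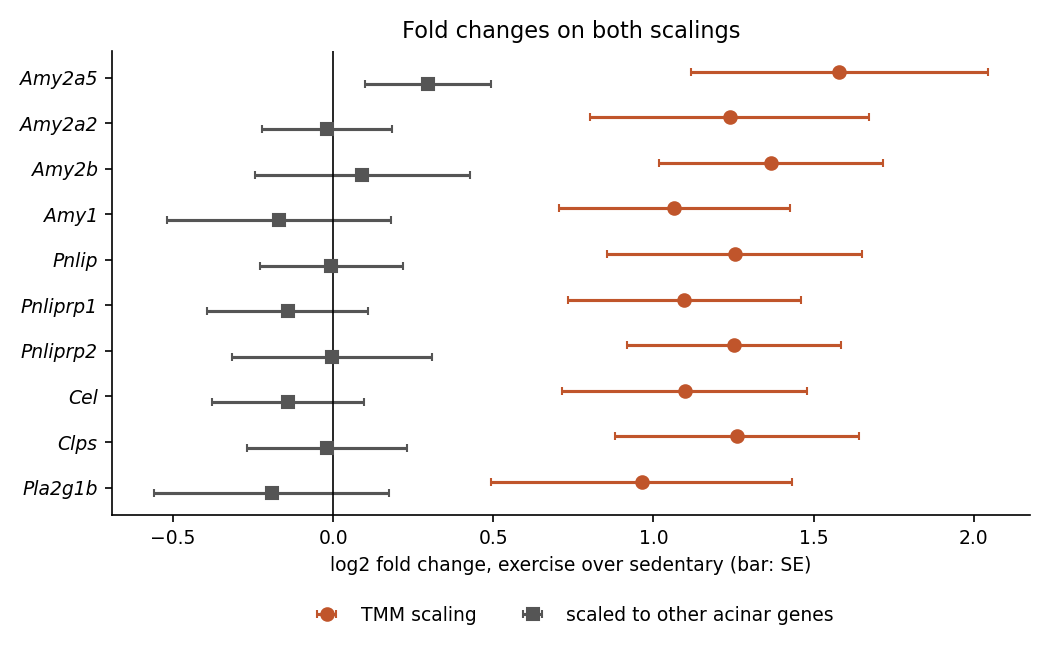
Log2 fold change of exercise over sedentary libraries for each gene, with TMM scaling (red circles) and with scaling to 29 other acinar genes (grey squares). Bars are SE, calculated back from the F statistic of the edgeR test. With TMM scaling the genes lie between 0.96 and 1.58, and relative to the other acinar genes between -0.19 and 0.30.

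The spread over all 10 libraries narrowed on this scale as well. The SD of a gene's log2 CPM was 0.75 to 0.95 (median 0.82), and that of its log2 ratio to the other acinar genes was 0.12 to 0.38 (median 0.16). An exact two-sided permutation test of each log2 ratio, added after the data were seen, gave p under 0.05 for 1 of 11 ratios. That was Amy2a5, with -1.72 ± 0.19 in exercise and -2.01 ± 0.12 in sedentary libraries (SD, n = 5 each; difference 0.29, exact permutation p = 0.0317). This p is not adjusted for the 11 ratios, and the ratio of Amy2a5 shares the uncertain division of reads given above. Amy2a2, whose transcript has the same coding sequence, differed by -0.02 (exact permutation p = 0.833).

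Within the narrow range, 2 libraries had a composition of their own. In exercise 6, Clps was 0.30 and Pla2g1b 0.23 above their mean log2 ratio over the 10 libraries, while Cel was 0.49, Amy1 0.39 and Pnlip 0.32 below theirs. There, 67.2 Clps counts stood against 100 Pnlip counts, against 37.7 to 42.1 in the other exercise libraries and 42.4 to 47.6 in the sedentary libraries. In sedentary 1, Pla2g1b was 1.03 above its mean log2 ratio, and the other 9 genes were between 0.05 below and 0.24 above theirs.

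**Figure D5:**
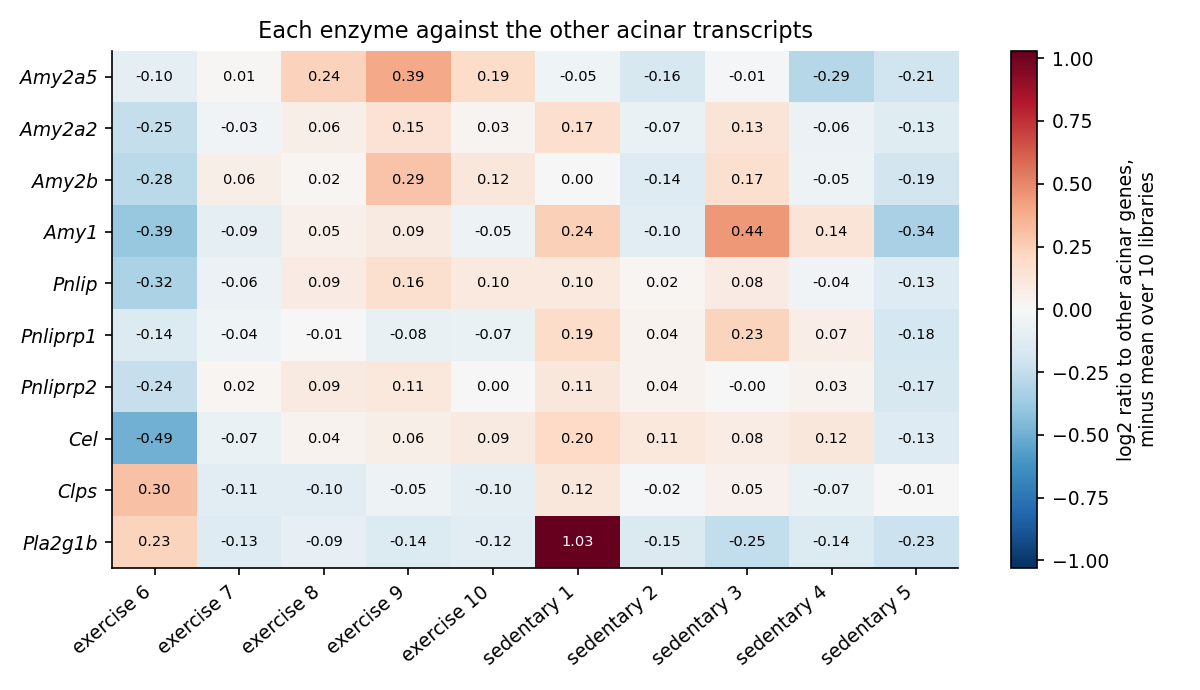
Log2 ratio of each gene's counts to the summed counts of 29 other acinar genes, minus the gene's mean over the 10 libraries, as a colour and a number for each library (exercise left, sedentary right). Most cells lie near 0, and the values farthest from it are Pla2g1b in sedentary 1 (1.03), Cel in exercise 6 (-0.49) and Amy1 in sedentary 3 (0.44).

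Acinar enzyme genes are driven by the PTF1 complex of PTF1A, RBPJL and a partner factor, which reads an E-box together with a TC-box, while other factors keep the acinar state. Of 5 acinar transcription factor genes, 2 rose, 1 fell and 2 did not pass (edgeR; 2.44% of all genes tested rose and 11.4% fell). With limma-voom 1 rose and 0 fell, and the calls of Rbpjl and Gata4 were lost (adjusted p = 0.0685 and 0.0593). Ptf1a was at 23.7 ± 12.5 CPM in exercise and 5.63 ± 2.66 CPM in sedentary libraries (SD, n = 5 each), a log2 fold change of 2.07 ± 0.42 (SE; adjusted p = 0.0117, edgeR). Rbpjl was at 58.2 ± 27.8 CPM in exercise and 24.6 ± 7.63 CPM in sedentary libraries, a log2 fold change of 1.24 ± 0.34 (SE; adjusted p = 0.0380, edgeR). Without sedentary 1 and 2 the edgeR adjusted p was 0.00717 for Ptf1a and 0.0534 for Rbpjl. Relative to the 29 other acinar genes, Ptf1a had a log2 fold change of 0.82 and Rbpjl one of -0.05, and neither passed (edgeR adjusted p = 0.0599 and 0.907). Bhlha15, a factor of secretory cell architecture, had a log2 fold change of 0.17 and Nr5a2, a nuclear receptor, one of -1.04, and neither passed (edgeR adjusted p = 0.622 and 0.191). Both values changed sign without sedentary 1 and 2, to -0.07 and 0.20. Gata4, which is also an intestinal and stomach factor, fell by 3.48 on the log2 scale, with 6.29 ± 1.81 CPM in exercise and 70.3 ± 67.3 CPM in sedentary libraries. It fell by 1.92 on the log2 scale without sedentary 1 and 2. Relative to the 29 other acinar genes, 3 of the 5 factors passed as lower, where 61.9% of all genes tested were lower. These were Bhlha15 at -0.98, Nr5a2 at -2.45 and Gata4 at -4.80 (edgeR adjusted p = 0.0337, 0.0016 and 1.84e-05).

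The promoters of 5 of the genes are shown so that the known sites of PTF1 can be looked for in them. All 10 genes varied together, so this does not set the 5 apart, and each of the 5 has a marked stretch. Each line gives the 140 bases before the RefSeq start on GRCm38.p6, on the gene's own strand, with capitals for an E-box (CANNTG), a TC-box (TGGGAA) and a TATA box (TATAAA).
Amy2a5 (chr3:113258700-113258839, minus strand): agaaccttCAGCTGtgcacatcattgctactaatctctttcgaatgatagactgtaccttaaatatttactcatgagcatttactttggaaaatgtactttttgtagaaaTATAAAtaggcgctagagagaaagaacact
Amy2b (chr3:113156728-113156867, minus strand): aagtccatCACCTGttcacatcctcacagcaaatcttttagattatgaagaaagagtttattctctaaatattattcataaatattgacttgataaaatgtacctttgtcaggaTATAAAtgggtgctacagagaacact
Pnlip (chr19:58670225-58670364, plus strand): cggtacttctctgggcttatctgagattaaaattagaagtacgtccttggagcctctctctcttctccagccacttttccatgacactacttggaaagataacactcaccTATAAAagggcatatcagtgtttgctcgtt
Pnliprp1 (chr19:58728747-58728886, plus strand): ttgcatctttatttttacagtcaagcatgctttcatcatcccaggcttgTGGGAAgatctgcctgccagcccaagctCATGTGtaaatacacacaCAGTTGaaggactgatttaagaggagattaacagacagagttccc
Cel (chr2:28563404-28563543, minus strand): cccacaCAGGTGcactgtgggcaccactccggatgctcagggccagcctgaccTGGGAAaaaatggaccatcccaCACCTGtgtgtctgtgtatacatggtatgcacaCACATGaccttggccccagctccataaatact
In Pnliprp1 the TC-box begins 91 and the nearest E-boxes 63 and 45 bases before the start, and in Cel the TC-box begins 87 and an E-box 65 bases before it. Amy2a5 and Pnlip both have TATAAA beginning 30 bases before the start, and Amy2b 26 bases before it. Searched on both strands over 250 bases before the start, an E-box was found in 6 of the 9 genes with a RefSeq window, against 66.2% of 32851 windows of all genes. The TC-box was found in 4 of 9, against 21.6% of windows, and TATAAA in 4 of 9, against 12.4%. Amy1 has 2 RefSeq windows, with the TC-box in one and TATAAA in the other. Counted by window, the E-box was in 6, the TC-box in 4 and TATAAA in 4 of 10. Pnliprp2 and Pla2g1b, not shown, have none of these motifs in the 140 bases before the start. A match is a description of letters and not of binding.

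Receptors through which meals and nerves trigger enzyme release did not pass in either direction (0 of 4 tested in edgeR and limma-voom, 1 lower in DESeq2). At an unadjusted p under 0.05 in edgeR there was 1, Vipr1, the receptor of vasoactive intestinal peptide, with a log2 fold change of -0.88. Cckar, the cholecystokinin receptor of rodent acinar cells, had 51.1 ± 13.2 CPM in exercise and 37.9 ± 14.7 CPM in sedentary libraries, a log2 fold change of 0.43 (edgeR adjusted p = 0.286). The muscarinic receptor genes Chrm3 and Chrm1 had 0.84 and -0.96, and the secretin receptor gene Sctr was too low to test. The log2 fold changes of Vipr1, Chrm3 and Chrm1 were -0.31, 0.38 and -0.25 without sedentary 1 and 2.

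The list of lipases outside the pancreatic set held no gene that rose. Of 22 other lipase and phospholipase genes, 15 could be tested, 0 rose and 6 fell (median log2 fold change -0.61; edgeR), where 2.44% of all genes tested rose and 11.4% fell. At an unadjusted p under 0.05, 2 were higher and 8 lower. DESeq2 called 1 higher and 8 lower (7.17 and 17.3% of all genes), and limma-voom 0 and 1 (1.16 and 2.22% of all genes). Without sedentary 1 and 2, 0 rose and 6 of 16 tested fell in edgeR, and the median was -0.23 (4.1% of all genes rose and 8.68% fell). The 4 of smallest p were Pla2g12b, a secreted phospholipase relative (-4.89), Liph, a lipase that makes lysophosphatidic acid (-3.75), Lipg, endothelial lipase (-5.28), and Lipa, the lysosomal acid lipase (-1.88). Lipa had 12.6 ± 3.34 CPM in exercise and 46.6 ± 26.9 CPM in sedentary libraries, and fell by 1.08 on the log2 scale without sedentary 1 and 2. Without these libraries the log2 fold changes of Pla2g12b, Liph and Lipg were -3.44, -2.44 and -3.47. The intestinal epithelium markers, at 2345 to 13542 CPM summed in sedentary libraries, moved with these falls, and their part was not tested.

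Genes that act on the products of amylase and lipase at the gut wall were mostly lower in exercise. Of 16 such genes 0 rose and 13 fell (median log2 fold change -4.22; edgeR), where 11.4% of all genes tested fell. The 10 intestinal epithelium markers fell with them (10 of 10, median -4.53, edgeR), and Sis, Fabp2, Apoa4 and Mttp are in both lists. With limma-voom 8 of these 10 markers fell. Of the 16 genes, 1 was higher at an unadjusted p under 0.05 in edgeR. DESeq2 called 0 higher and 13 lower (7.17 and 17.3% of all genes), and limma-voom 0 and 12 (1.16 and 2.22% of all genes). Without sedentary 1 and 2 the same counts of 0 and 13 had a median of -2.81 (edgeR; 4.1% of all genes rose and 8.68% fell). Among them, Npc1l1, the sterol transporter, had 4.26 ± 2.75 CPM in exercise and 92.4 ± 78.4 CPM in sedentary libraries, and Mogat2, which rebuilds triglycerides from monoglycerides, 3.39 ± 2.31 CPM in exercise and 92.0 ± 84.5 CPM in sedentary libraries. Mttp, which loads fat onto lipoproteins, and Fabp2, which binds fatty acids in enterocytes, had log2 fold changes of -4.24 and -5.05. For Npc1l1, Mogat2, Mttp and Fabp2 they were -3.03, -3.22, -2.70 and -3.57 without sedentary 1 and 2. Fabp2 was at 7.94 to 51.7 CPM in exercise libraries, against 1426 and 1915 CPM in sedentary 1 and 2 and 191 to 375 CPM in sedentary 3 to 5.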

How the data were processed

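The authors deposited a table of estimated counts, by Ensembl gene, for 10 stranded mRNA libraries. The submitters' processing notes name fastp and kallisto without versions. Build, annotation and the step from transcripts to genes were not given in the sources used here. Among all values 12.6% were not whole (tolerance 1e-06), and counts were rounded before testing. Library totals were 15081922 to 23222704, and counting error is a lower bound on the true error. Members were matched by symbol through the table of gene names. The members and the gene lists were chosen with earlier results of these data known. Named beyond the members were the 4 genes of smallest p of each of 5 lists (all genes of lists of 5 or fewer) and the 5 genes nearest in profile, of which 1 is not reported here. Marker and context genes were named beyond this rule, after their values were seen.

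All genes were fitted by edgeR 4.0.16 (quasi-likelihood, R 4.3.3) with TMM factors (0.669 to 1.20) and its default filter (minimum count 10, minimum total 15), which left 15298 genes. P-values were adjusted by Benjamini-Hochberg over all genes tested, with a threshold of 0.05, and log2 CPM used a prior count of 2. The SE of an edgeR log2 fold change was calculated back from that change and the F statistic of its test. It is therefore not independent of the p-value. The relative fit took the summed counts of 29 other acinar genes as library size. For single values the test was an exact permutation test, two-sided, whose smallest p is 0.00794. Alternatives were RLE, upper quartile and library-total scaling, TMM factors without acinar genes, no filter, DESeq2 1.42.0, voom of limma 3.58.1, other acinar scalings, summed amylase rows and leaving out libraries. Transcripts came from GENCODE M21 and promoters from RefSeq (GRCm38.p6), where 9 of the 10 genes matched. No gene coordinates are given for the counts, since their build is not known. No column was left without a sample.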

Additional observations from a re-analysis of the deposited data

Results flagged for a closer look

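In 12 of 44 groups of 5 libraries, a library lay farther from the rest of its group than the 95% critical ratio of 0.71 (Dixon) allows. For a single group chance gives about 1 in 20. The 44 groups are the same libraries seen through correlated genes and on both scales. They are therefore not independent, and the count of 12 cannot be set against that rate. Exercise 9 stood above the other exercise libraries in the CPM of Amy2a5 (119327), Amy2a2 (74980), Amy2b (1157), Amy1 (118), Pnlip (40587) and Cel (26903), and of amylase summed over its rows (382674). In exercise 6 the log2 ratio to the other acinar genes was -4.18 for Cel, below the other exercise libraries, and -4.09 for Clps and -8.19 for Pla2g1b, above them. Sedentary 1 stood above the other sedentary libraries for Pla2g1b, with 699.6 CPM and a log2 ratio of -7.39.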

How the results depend on the processing

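No paired analysis was possible because the labels number the libraries 1 to 10 and the groups share no number. The number of the 10 genes that rose was 3, and 2 or 3 with RLE factors, library totals, factors without acinar genes or no filter. It was 5 with upper quartile scaling, 9 with DESeq2, 1 with limma-voom, 6 without sedentary 1 and 2 and 1 with the amylase rows summed. Leaving out 1 library gave 0 to 6, with 0 without exercise 6, exercise 7, sedentary 2 or sedentary 5. Among all genes tested, 132 of 15578 rose without exercise 7 and 167 of 15505 without exercise 6. Without sedentary 2 it was 231 of 15515, and without sedentary 5 it was 242 of 15465. The most were 889 of 15405, without sedentary 4. With all libraries 374 of 15298 rose, and 499 with upper quartile scaling. The cause was not tested. The 16 acinar genes that rose were 5 with limma-voom, and 1 to 18 with 1 library left out. Summed amylase, at 1.31, passed with DESeq2 (1.31). An exact permutation test added after the data were seen gave a mean difference of 1.27, with a p that follows from the lack of overlap alone. Summed amylase was 0.99 to 1.53 with 1 library left out, not passing in edgeR in any of them. In the relative fit 0 genes passed in any of the 14 alternatives, and the exact permutation test gave 1. Values near 0 changed sign there. With acinar genes without trypsinogens and chymotrypsinogens they were 0.024 (Amy2a2), 0.035 (Pnlip), 0.039 (Pnliprp2) and 0.030 (Clps). With TMM over the acinar genes they were 0.0067 (Pnlip) and 0.0096 (Pnliprp2). Without sedentary 1 and 2 they were 0.010 (Amy2a2), 0.030 (Pnlip), 0.044 (Pnliprp2), 0.0058 (Clps) and 0.16 (Pla2g1b). With 1 library left out they spanned -0.058 to 0.037 (Amy2a2), -0.049 to 0.065 (Pnlip), -0.045 to 0.050 (Pnliprp2), -0.11 to 0.0083 (Clps) and -0.28 to 0.15 (Pla2g1b). The share taken by the 10 genes differed by 6.33 percentage points, and by 4.74 to 7.11 with 1 library left out.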
